A study of Mus musculus with 9 samples.

Results

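The insulin-like growth factor (IGF) family was followed at the RNA level in tumour-bearing mouse omenta, through 9 genes chosen by symbol from the 55359 genes of the count table. The 9 are the ligands Igf1 and Igf2, the receptor Igf1r and the binding proteins Igfbp2, Igfbp3, Igfbp4, Igfbp5, Igfbp6 and Igfbp7. The rule that chose them names a difference of Igfbp3 and Igfbp5 between routes of T cell injection, so the values of these genes are given as a description without a test, as are those of every family gene between routes. Each of the 9 symbols matched 1 Ensembl identifier, and 8 of the 9 passed the filter on low counts, Igf2 being the exception.

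All omenta came from C57BL/6 mice of 7 to 10 weeks that had been given 500000 B16-OVA melanoma cells, which express the antigen ovalbumin, into the peritoneal cavity. Such cells settle in the omentum, the fatty apron of the peritoneum. On day 6 the mice of the IP group received ovalbumin-specific OT-I T cells carrying IL-12 mRNA by the intraperitoneal route, those of the IV group received such cells intravenously, and those of the PBS group received saline, and omenta were taken 18 h after T cell injection. There were 3 libraries per group (IP 2, 3 and 4, IV 1, 2 and 4, PBS 1, 2 and 3, by mouse number), and the labels used here do not give the route of the saline. Every T cell recipient got cells with IL-12 mRNA, so what the cells do and what IL-12 does cannot be told apart.

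Library totals ran between 7379798 counts in IV 2 and 44626843 in PBS 3. IV 4 correlated more strongly with PBS 3 (r = 0.981 over the log2 CPM of all tested genes) than with IV 1 (0.948) or IV 2 (0.953), and results that turn on it are given with and without it. The omental label fitted the marker genes: 12 adipocyte markers summed to 608 to 1031 CPM (TMM-scaled counts per 1e+06) in IP omenta, 1295 to 1752 CPM in IV omenta and 760 to 1383 CPM in PBS omenta, and 12 mesothelial markers to 149 to 333 CPM, 184 to 280 CPM and 154 to 228 CPM in the IP, IV and PBS omenta. The 9 melanoma markers summed to 14016 to 15797 CPM in IP omenta, 18740 to 24325 CPM in IV omenta and 26223 to 29275 CPM in PBS omenta. Transcripts of pancreatic acinar cells were also present, at 193 to 18815 CPM in IP omenta, 9.52 to 25014 CPM in IV omenta and 13.3 to 20.6 CPM in PBS omenta. IP 4, the library with 18815 CPM of them, also had the mesothelial sum of 333 CPM. Of that sum the keratin genes Krt18 and Krt8 made up 86.6 and 64.0 CPM. The RNA is of whole tissue, so fewer cells of a type and less RNA per cell cannot be told apart for any gene below.

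IGF-1 and IGF-2 are small hormones related to insulin that act through the receptor tyrosine kinase IGF1R, whose signal runs through insulin receptor substrates, PI3 kinase and AKT and favours growth and survival of cells. In tissue fluid nearly all IGF is held by secreted binding proteins, which limit its access to the receptor and release it when proteases cut them. In fatty and connective tissue the ligand and binding proteins are made largely by stromal cells, adipocytes, endothelial cells and macrophages.

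Igf1 rose after T cells given by either route, 2.06-fold in IP and 2.14-fold in IV omenta against saline, while binding protein levels differed by route. In IP omenta Igfbp3 was 6.80-fold higher and Igfbp5 2.74-fold lower than in PBS omenta, whereas in IV omenta Igfbp5 was 3.05-fold and Igfbp3 1.41-fold higher. Igfbp4 was 2.33-fold lower in IP omenta than in PBS omenta and close to the saline level in IV omenta. Of the 6 genes that were tested, meaning the family without Igf2, Igfbp3 and Igfbp5, 2 passed the threshold of 0.05 on edgeR's adjusted p in IP against PBS, 1 higher and 1 lower, where 32.9% of all 17123 tested genes did, 18.7% higher and 14.2% lower. In IV against PBS 1 of the 6 passed, 1 higher, as did 16.1% of all genes (10.4% of all higher, 5.66% lower), so the share of family genes called was near the background in both comparisons. Between IP and IV, Igfbp3, Igfbp4 and Igfbp5 did not overlap. The share of all genes without overlap was not computed, here or for the comparisons with PBS given below. By edgeR's test, which is another measure, 10.4% of all genes were called (5.93% with IP above IV, 4.47% with IP below it). Nothing is read from either about genes chosen by this contrast.

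**Figure D1:**
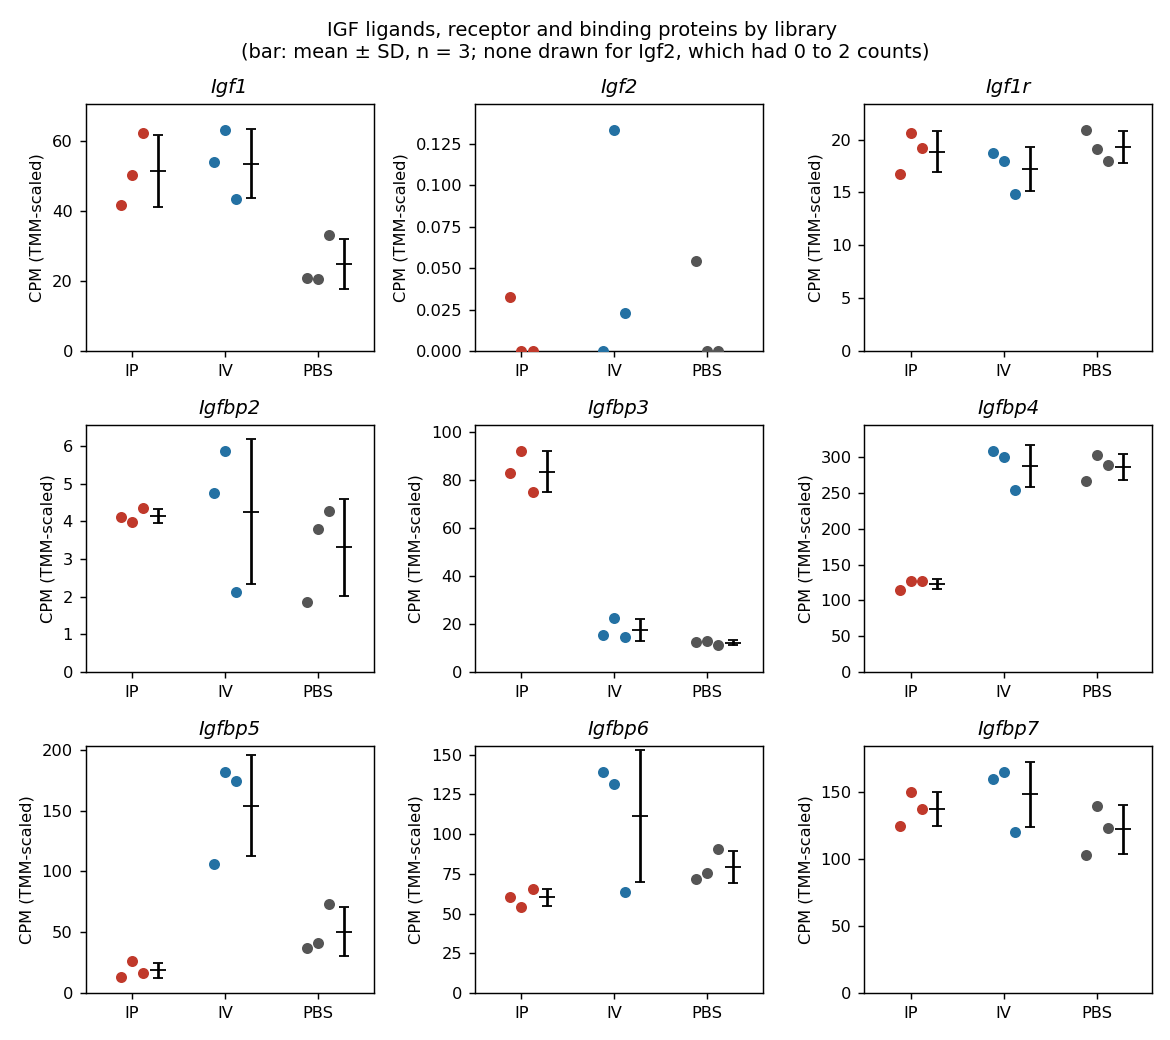
TMM-scaled CPM (linear axis) of the 9 family genes in each library, with points for single omenta in the IP, IV and PBS groups and bars for mean ± SD of 3. Igfbp3 stands apart in IP omenta (75.0 to 92.1 CPM), Igfbp5 in IV omenta (106 to 182 CPM), and Igf1 is above PBS in both treated groups.

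Among the ligands, Igf1, which cells make locally as well as the liver for the circulation, was at 41.9, 50.3 and 62.3 CPM in IP omenta and at 54.2, 63.2 and 43.4 CPM in IV omenta, against 21.0, 20.7 and 33.1 CPM in PBS omenta. Every treated library lay above every PBS library, and the IP and IV values overlapped. Igf1 averaged 51.5 ± 10.3 CPM in IP omenta and 24.9 ± 7.10 CPM in PBS omenta (SD, n = 3 each), a log2 fold change of 1.05 ± 0.22 (SE), with an adjusted p of 0.00465 in edgeR's quasi-likelihood test. In IV omenta it averaged 53.6 ± 9.91 CPM, a log2 fold change of 1.10 ± 0.22 against PBS with an edgeR adjusted p of 0.0104, and all 3 IV libraries showed the direction. That call was lost without PBS 1 (edgeR adjusted p = 0.0533) and held without IV 4 (1.22 on the log2 scale, edgeR adjusted p = 0.00551). The difference IP minus IV was -0.05 ± 0.22 on the log2 scale.

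Macrophages are a known source of IGF-1 in injured and inflamed tissue. The 12 macrophage markers summed to 1461 to 1602 CPM in IP omenta, 1594 to 2020 CPM in IV omenta and 651 to 1143 CPM in PBS omenta. This sum, like Igf1, did not overlap between treated and PBS omenta, and neither did the neutrophil, T cell, endothelial and mural cell marker sums. Of the 12 macrophage markers, 5 rose and 4 fell in IP against PBS, and 5 rose and none fell in IV against PBS. The complement genes C1qa, C1qb and C1qc rose by either route and made up a large part of the sum. They averaged 299, 423 and 291 CPM in IP omenta, 417, 522 and 350 CPM in IV omenta and 141, 165 and 121 CPM in PBS omenta. Cd163 and Lyve1, which mark resident macrophages, fell in IP omenta. The part of these cells in the Igf1 result was not tested.

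Igf2, the fetal ligand, had counts of 1, 0 and 0 in IP omenta and 0, 1 and 1 in IV omenta, against 2, 0 and 0 in PBS omenta. It was not detectable at this depth beyond single reads, where 3 counts correspond to between 0.0610 CPM in PBS 3 and 0.400 CPM in IV 2, a limit that covers counting error only. No fold change is given for it.

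The receptor Igf1r was at 16.8, 20.6 and 19.2 CPM in IP omenta and 18.7, 18.0 and 14.9 CPM in IV omenta, against 20.9, 19.1 and 17.9 CPM in PBS omenta. All groups overlapped. Its log2 fold change was -0.03 ± 0.15 in IP against PBS (edgeR adjusted p = 0.881) and -0.17 ± 0.15 in IV against PBS (edgeR adjusted p = 0.479), so no difference beyond the spread was found for the receptor.

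Of the binding proteins, Igfbp3, Igfbp4 and Igfbp5 had the largest differences from PBS, in different patterns, and the 250 bases before their annotated start sites are shown so that the proximal promoters of the 3 can be compared. They were taken from RefSeq on GRCm38.p6, an older build than the mm39 that the submitters name, and lie at chr11:7213924-7214173 on the minus strand for Igfbp3, chr11:99040994-99041243 on the plus strand for Igfbp4 and chr1:72874866-72875115 on the minus strand for Igfbp5. Each is written 5′ to 3′ along its gene, and capitals mark matches of the TATA-like motif TATANA on either strand.
Igfbp3: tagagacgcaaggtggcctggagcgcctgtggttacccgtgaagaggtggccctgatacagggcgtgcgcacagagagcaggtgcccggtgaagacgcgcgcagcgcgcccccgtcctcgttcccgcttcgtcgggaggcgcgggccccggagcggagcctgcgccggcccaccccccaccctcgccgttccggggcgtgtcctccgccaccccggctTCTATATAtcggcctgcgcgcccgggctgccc
Igfbp4: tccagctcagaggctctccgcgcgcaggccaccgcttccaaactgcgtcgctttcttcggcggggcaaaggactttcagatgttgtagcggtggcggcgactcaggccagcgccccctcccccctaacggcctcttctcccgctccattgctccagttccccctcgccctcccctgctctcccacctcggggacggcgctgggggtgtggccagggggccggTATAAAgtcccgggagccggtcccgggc
Igfbp5: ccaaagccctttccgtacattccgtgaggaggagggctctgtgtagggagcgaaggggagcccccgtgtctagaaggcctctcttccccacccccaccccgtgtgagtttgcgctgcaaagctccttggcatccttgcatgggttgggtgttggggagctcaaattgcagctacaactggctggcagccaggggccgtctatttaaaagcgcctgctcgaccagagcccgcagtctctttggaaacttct

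Igfbp3 held 2 overlapping matches of TATANA, whose first bases lie 32 and 30 bases upstream of the start, and Igfbp4 held 1, at 28 bases. Igfbp5 held none, though its window has the AT-rich run tatttaaaa, which the pattern TATANA does not match. Of all 32851 RefSeq promoter windows of the same 250 bases, 22.6% held at least 1 match of TATANA. None of the 3 windows held, on either strand, the GC box GGGCGG (32.7% of all windows), CCAAT (33.8%), the STAT motif TTCNNNGAA (7.02%) or the AP-1 motif TGANTCA (6.75%). This says only that these letters are not in these windows. The GC content was 73.2% for Igfbp3, 69.2% for Igfbp4 and 58.8% for Igfbp5.

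Igfbp3, in blood the main carrier of IGF together with an acid-labile subunit, was at 83.2, 92.1 and 75.0 CPM in IP omenta and 15.4, 22.7 and 14.4 CPM in IV omenta, against 12.6, 12.9 and 11.3 CPM in PBS omenta. The 3 groups did not overlap, with IP far above the rest and IV just above PBS. The log2 fold change was 2.77 ± 0.18 for IP against PBS and 0.49 ± 0.18 for IV against PBS. With 1 library left out, the IP value ran between 2.69 and 2.84. The IV value ran between 0.28 without IV 2 and 0.60 without IV 4. The difference IP minus IV, which the rule names, was 2.27 ± 0.18 on the log2 scale, or 4.84-fold, and 2.16 without IV 4. The comparisons with PBS share their IP and IV libraries with the one that chose the gene, so no p is given.

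Igfbp5, a binding protein that attaches to extracellular matrix and is made by fibroblasts, was at 13.5, 25.9 and 16.0 CPM in IP omenta and 106, 182 and 174 CPM in IV omenta, against 37.3, 40.7 and 73.4 CPM in PBS omenta. Here too the groups did not overlap, but with IP below PBS and IV above it. The log2 fold change was -1.46 ± 0.32 for IP against PBS and 1.61 ± 0.32 for IV against PBS. With 1 library left out, the IP value ran between -1.78 without IP 3 and -1.08 without PBS 3. The IV value ran between 1.42 without PBS 1 and 1.98 without PBS 3. The difference IP minus IV was -3.06 ± 0.34, or 8.36-fold lower in IP omenta, and it was -2.96 without IV 4. IV 4, the library close to PBS 3 over all genes and the one with the lowest acinar sum, had 174 CPM of Igfbp5 against 73.4 CPM in PBS 3. The acinar sums of the groups are given above, and the part of these cells in the Igf1 and Igfbp5 results was not tested.

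**Figure D2:**
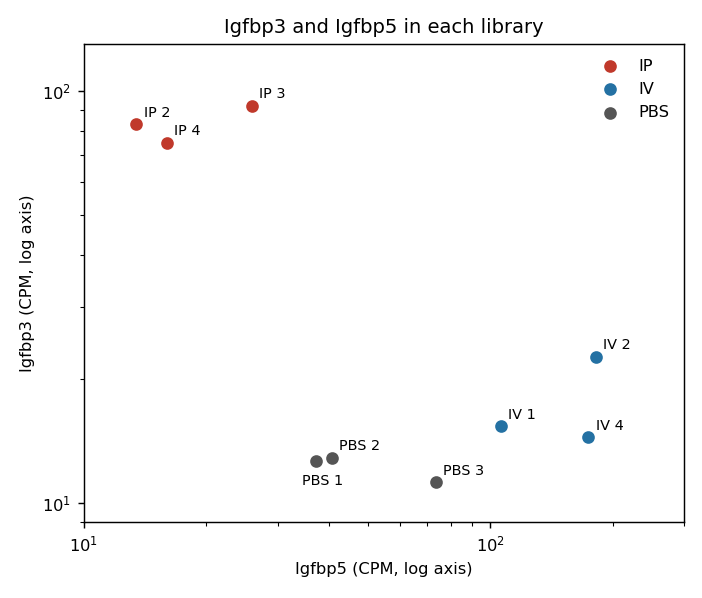
Igfbp3 against Igfbp5 in each of the 9 libraries, both as TMM-scaled CPM on log axes, one point per omentum. IP libraries lie at the upper left, with Igfbp3 at 3.56 to 6.17 times Igfbp5, and the IV and PBS libraries at the lower right.

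Set against each other within a library, the Igfbp3 to Igfbp5 CPM ratio was 6.17, 3.56 and 4.69 in IP omenta and 0.145, 0.125 and 0.0829 in IV omenta, against 0.339, 0.317 and 0.153 in PBS omenta. A ratio within a library does not depend on how libraries are scaled. IP libraries were above 1 and the other 6 below 1. The rule names both genes for differing by route, so the separation of IP from IV in this ratio is a description and no independent result.

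Igfbp4, which mostly inhibits IGF action and is cleaved by the protease PAPP-A, was at 115, 127 and 127 CPM in IP omenta and 309, 301 and 254 CPM in IV omenta, against 267, 303 and 290 CPM in PBS omenta. IP libraries lay below all others, and IV and PBS overlapped. Igfbp4 fell by 1.22 ± 0.13 on the log2 scale in IP against PBS, with an edgeR adjusted p of 6.65e-05 that stayed between 2.30e-05 and 0.000928 whichever library was left out. In IV against PBS the log2 fold change was 0.01 ± 0.13 (edgeR adjusted p = 0.981), and IP minus IV was -1.22 ± 0.13. It was the only one of the 6 tested family genes that fell in either comparison with PBS. Melanoma markers moved with it in part: 6 of 9 fell and none rose in IP against PBS, and 3 of 9 fell in IV against PBS, where Igfbp4 did not pass. The part of tumour RNA in the Igfbp4 result was not tested.

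Igfbp6, which prefers IGF-2 as its ligand, was at 60.5, 54.4 and 65.5 CPM in IP omenta and 139, 131 and 63.6 CPM in IV omenta, against 71.7, 75.4 and 90.8 CPM in PBS omenta. IP libraries lay below the PBS libraries without overlap, IV 1 and IV 2 lay above them, and IV 4 lay with the IP libraries. The log2 fold change was -0.40 ± 0.25 in IP against PBS (edgeR adjusted p = 0.249) and 0.49 ± 0.25 in IV against PBS (edgeR adjusted p = 0.210). Without IV 4 both passed the threshold, at -0.40 with an edgeR adjusted p of 0.0217 in IP against PBS and at 0.77 with an edgeR adjusted p of 0.00339 in IV against PBS. IP minus IV was -0.89 ± 0.25 with IV 4 and -1.17 without it.

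Igfbp7, a relative with low affinity for IGFs that is abundant in blood vessel walls, was at 124, 150 and 137 CPM in IP omenta and 159, 165 and 120 CPM in IV omenta, against 103, 140 and 123 CPM in PBS omenta. The groups overlapped, with log2 fold changes of 0.17 ± 0.16 in IP against PBS (edgeR adjusted p = 0.456) and 0.28 ± 0.16 in IV against PBS (edgeR adjusted p = 0.268). Igfbp2, which circulates at high levels and is made in liver and fat, was low here, at 4.12, 3.98 and 4.35 CPM in IP omenta and 4.77, 5.87 and 2.12 CPM in IV omenta, against 1.86, 3.80 and 4.29 CPM in PBS omenta. It overlapped between groups too, with 0.32 ± 0.39 in IP against PBS (edgeR adjusted p = 0.568) and 0.31 ± 0.39 in IV against PBS (edgeR adjusted p = 0.636). Its neighbour on chromosome 1 in the RefSeq order of coding genes is Igfbp5, which is among the most different genes of the family, and IP minus IV for Igfbp2 was 0.01 ± 0.39. The neighbour of Igfbp3 on chromosome 11, Igfbp1, had 0 counts in all 9 libraries.

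**Figure D3:**
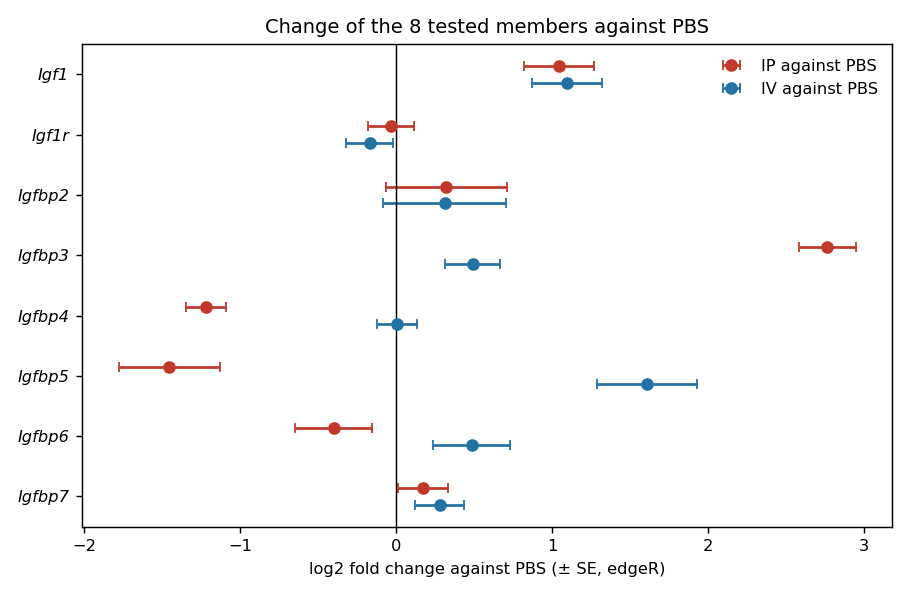
Log2 fold change against PBS, with bars for ± 1 SE from edgeR, of the 8 family genes that passed the filter on low counts, in IP omenta (red) and IV omenta (blue). Igf1 lies at 1.05 in IP and 1.10 in IV, Igfbp3 at 2.77 and 0.49, Igfbp4 at -1.22 and 0.01, and Igfbp5 at -1.46 and 1.61.

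Per kilobase of exon, which allows levels of different genes to be compared, the order in PBS omenta was Igfbp7 at 101 CPM per kb, Igfbp6 at 71.3, Igfbp4 at 64.9, Igfbp5 at 8.40, Igfbp3 at 3.92, Igf1 at 2.52, Igfbp2 at 1.79 and Igf1r at 1.15 CPM per kb. Igfbp6 and Igfbp4 did not differ beyond their spread (SD 9.10 and 4.12), nor did Igf1 and Igfbp2 (SD 0.717 and 0.696). In IP omenta Igfbp3 stood at 26.6 ± 2.74 CPM per kb, level with Igfbp4 at 27.9 ± 1.58, and Igfbp5 at 3.07 ± 1.09, below Igf1 at 5.20 ± 1.04. In IV omenta Igfbp5 reached 25.6 ± 6.95 CPM per kb, against 5.59 ± 1.44 for Igfbp3.

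As a share of the transcripts of all 6 binding proteins per kb, Igfbp3 made up 11.7 ± 1.15% in IP omenta, 1.75 ± 0.313% in IV omenta and 1.58 ± 0.240% in PBS omenta (mean ± SD, n = 3). Igfbp5 made up 1.34 ± 0.414%, 8.33 ± 3.32% and 3.31 ± 1.10% in the IP, IV and PBS omenta, and Igfbp4 12.3 ± 0.194%, 20.6 ± 2.28% and 25.9 ± 1.39%. Igfbp7 was the most abundant in every library, at 49.8 ± 2.15% in IP omenta, 38.3 ± 1.40% in IV omenta and 40.1 ± 3.06% in PBS omenta. The 6 genes together came to 214, 238 and 230 CPM per kb in IP omenta and 352, 363 and 249 in IV omenta, against 221, 265 and 267 in PBS omenta. The IP and PBS sums overlapped, so the make-up of the binding proteins differed while their total in IP omenta did not separate from that in PBS omenta.

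**Figure D4:**
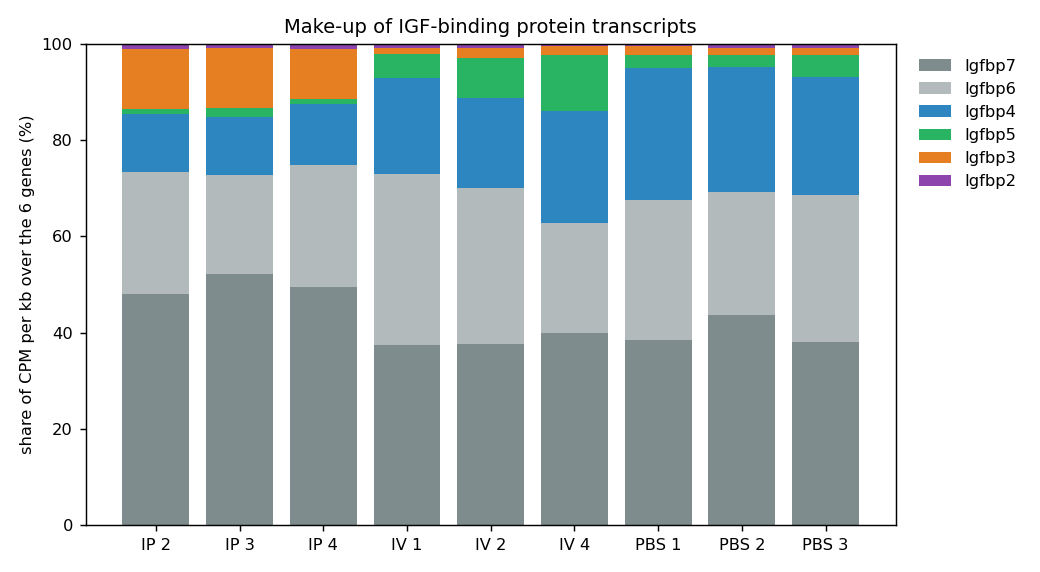
Share of each binding protein in the summed CPM per kb of the 6 genes, in percent, one bar per library in the order IP, IV, PBS. Igfbp3 takes 10.4 to 12.4% of each IP bar and at most 1.99% of any other, and Igfbp5 takes 5.01 to 11.7% of each IV bar.

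Levels of stromal markers also differed between the groups. Of 13 fibroblast markers, 3 rose and 1 fell in IP against PBS and 1 rose in IV against PBS, with sums of 2500 to 2995 CPM in IP omenta, 1961 to 2409 CPM in IV omenta and 1664 to 2724 CPM in PBS omenta. Between routes 1 of the 13 was higher and 2 were lower in IP omenta, 10 did not pass, and the median log2 fold change was 0.0085. The collagen gene Col3a1 was the higher one (0.91 ± 0.24 on the log2 scale, edgeR adjusted p = 0.0388). The matrix genes Dpt (-0.94 ± 0.18, edgeR adjusted p = 0.00793) and Fbln1 (-1.03 ± 0.16, edgeR adjusted p = 0.00286) were the lower ones. Fbln1 averaged 70.5, 144 and 154 CPM in the IP, IV and PBS omenta, without the rise over PBS that Igfbp5 had in IV omenta. Of 12 adipocyte markers, 1 rose and 1 fell in IP against PBS and 3 rose in IV against PBS, with median log2 fold changes of -0.39 and 0.55. Between routes 3 of the 12 passed, all lower in IP, and the median was -0.98. Their sums, given above, were lower in each IP library than in any IV library, the direction that Igfbp5 showed, but overlapped between IP and PBS omenta. B cell markers, outside the stroma, also had this direction, and all 7 were lower in IP than in IV omenta. All 7 rose in IV against PBS, and 2 fell and none rose in IP against PBS. The B cell sums were 32.7 to 58.5 CPM in IP omenta, 122 to 446 CPM in IV omenta and 52.5 to 61.8 CPM in PBS omenta. Of 13 endothelial markers 6 rose and 1 fell in IP against PBS while none passed in IV against PBS. The endothelial sum was 557 to 625 CPM in IP omenta, 464 to 533 CPM in IV omenta and 411 to 443 CPM in PBS omenta, without overlap and in the same order of groups as Igfbp3. A large part of this sum was 1 gene, Eng, at means of 355, 293 and 225 CPM in the IP, IV and PBS omenta. Not all of the 13 shared its order, and Vwf averaged 17.7, 31.3 and 34.6 CPM in the IP, IV and PBS omenta. The part of these cells in the Igfbp3, Igfbp4 and Igfbp5 differences was not tested.

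Genes were ranked by how closely their log2 CPM followed a family gene over the 9 libraries. The 10964 ranked genes had a mean of at least 5 CPM. Family genes and genes with provisional, pseudogene, immunoglobulin or T cell receptor segment names were left out. For Igfbp5 the closest were Cygb, the globin cytoglobin (Pearson r = 0.963), Efcab6 (0.932), Tmem255a (0.930), Dpt, which codes for the matrix protein dermatopontin (0.930), and Sult1a1, a sulfotransferase (0.927). For Igfbp3 they were Tpm4, a tropomyosin (0.997), Riok3, an atypical kinase (0.994), Slfn4, an interferon-induced gene of myeloid cells (0.986), Serpine2, a protease inhibitor (0.985), and Mmp3, the metalloproteinase stromelysin (0.984). For Igf1 they were Bscl2, which codes for the lipid droplet protein seipin (0.989), Vegfd, a lymphatic growth factor (0.974), Gpx3, a secreted glutathione peroxidase (0.970), Mob3c (0.969) and Pilrb1 (0.968). These correlations are a description, since libraries of a group share their treatment. Serpine2 had the steepest pattern of them, with mean levels of 72.3 CPM in IP omenta, 5.38 CPM in IV omenta and 4.12 CPM in PBS omenta.

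Genes around the family were read from 6 lists. The enzymes that cut binding proteins and their stanniocalcin inhibitors gave 4 higher and 2 lower of 8 in IP against PBS and 2 higher and 2 lower in IV against PBS, with median log2 fold changes of 0.30 and -0.18 where the medians over all genes were 0.02 and 0.04. Stc1, an inhibitor of PAPP-A proteases, was at 6.82, 7.88 and 6.67 CPM in IP omenta and 2.84, 2.40 and 1.28 CPM in IV omenta, against 2.59, 2.88 and 2.01 CPM in PBS omenta. It was above all other libraries in IP omenta and rose there by 1.52 ± 0.30 on the log2 scale against PBS (edgeR adjusted p = 0.00271), and it was higher in IP than in IV omenta by 1.74 ± 0.31 (edgeR adjusted p = 0.00616). Its relative Stc2 rose by both routes, by 2.31 ± 0.42 in IP and 1.76 ± 0.42 in IV on the log2 scale (edgeR adjusted p = 0.00166 and 0.0199), the IV call being lost without any 1 of the PBS libraries, IV 1 or IV 2 (edgeR adjusted p up to 0.0756). Adam12, a metalloproteinase that cuts IGFBP-3 and IGFBP-5, was at 23.4, 27.0 and 23.2 CPM in IP omenta and 31.1, 18.9 and 26.3 CPM in IV omenta, against 65.4, 46.7 and 52.1 CPM in PBS omenta. It was lower in each treated library than in any PBS library, with log2 fold changes of -1.16 ± 0.19 in IP and -1.09 ± 0.19 in IV (edgeR adjusted p = 0.000922 and 0.00501). Adamts1, another metalloproteinase, fell by 1.26 ± 0.21 in IV against PBS (edgeR adjusted p = 0.00435) and by 0.69 ± 0.21 in IP against PBS (edgeR adjusted p = 0.0258), the IP call being lost without PBS 1, PBS 3 or any IP library (edgeR adjusted p up to 0.110). Htra1, a serine protease that cleaves IGFBP-5, rose by 0.87 ± 0.19 in IP and 0.89 ± 0.19 in IV on the log2 scale (edgeR adjusted p = 0.00556 and 0.0136), the IV call being lost without PBS 1, PBS 2 or IV 2 (edgeR adjusted p up to 0.0675). Pappa itself, the protease of IGFBP-4, stayed at 1.10 to 1.55 CPM in IP omenta, 0.364 to 3.74 CPM in IV omenta and 1.34 to 2.17 CPM in PBS omenta and did not pass.

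Of 6 receptors outside the family, 3 rose and none fell in IP against PBS and 2 rose in IV against PBS, with medians of 0.64 and 0.25. Lrp1, a large endocytic receptor that also binds IGFBP-3, was at 275, 303 and 287 CPM in IP omenta and 151, 116 and 194 CPM in IV omenta, against 142, 87.3 and 178 CPM in PBS omenta. IP libraries lay above the rest, a rise of 1.08 ± 0.25 on the log2 scale against PBS (edgeR adjusted p = 0.00698). Its difference between routes (0.91 ± 0.25, edgeR adjusted p = 0.0436) was lost without PBS 1, any IP library, IV 1 or IV 2, with adjusted p up to 0.142. Tmem219, described as a receptor of IGFBP-3, rose by 0.89 ± 0.18 in IP against PBS (edgeR adjusted p = 0.00365) and by 0.67 ± 0.18 in IV against PBS (edgeR adjusted p = 0.0331), where the call was lost without PBS 1, PBS 3, any IP library, IV 1 or IV 2, with adjusted p up to 0.145. Insrr, the orphan receptor related to the insulin receptor, was at 3.13, 4.49 and 5.29 CPM in IP omenta and 2.11, 3.20 and 2.05 CPM in IV omenta, against 0, 0 and 0.528 CPM in PBS omenta. Only PBS 3 of the saline libraries had reads. The fitted log2 fold changes were 4.36 ± 0.87 in IP and 3.51 ± 0.87 in IV (edgeR adjusted p = 0.00301 and 0.0221), and the IV call was lost without PBS 1, PBS 2 or IV 2 (edgeR adjusted p up to 0.0646). Without PBS 3, which leaves saline libraries at 0 reads, they were 9.92 and 9.07, so their size rests on that library. Igf2r, Insr and Ghr, the receptors of IGF-2, insulin and growth hormone, did not pass in either comparison with PBS.

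The growth hormone branch, in which the receptor acts through JAK2 and STAT5 on Igf1 and is damped by SOCS proteins, had 7 of 8 genes higher and none lower in IP against PBS and 4 of 8 higher in IV against PBS, with medians of 1.14 and 0.58. These genes also serve many cytokine receptors. All 7 neutrophil markers rose in IP against PBS and 2 of 7 in IV against PBS, with sums of 321 to 430 CPM in IP omenta, 39.8 to 202 CPM in IV omenta and 17.2 to 39.2 CPM in PBS omenta. Of 9 T cell markers, 7 rose in IP and 6 in IV against PBS and none fell, with sums of 238 to 269 CPM in IP omenta, 114 to 295 CPM in IV omenta and 43.3 to 112 CPM in PBS omenta. The part of neutrophils and T cells in the results of this list was not tested. Socs3, an inhibitor of cytokine signalling, was at 200, 183 and 182 CPM in IP omenta and 59.6, 53.6 and 44.9 CPM in IV omenta, against 23.0, 25.9 and 34.9 CPM in PBS omenta. The 3 groups did not overlap, with log2 fold changes of 2.75 ± 0.18 in IP and 0.91 ± 0.17 in IV (edgeR adjusted p = 1.25e-05 and 0.00625), and a difference between routes of 1.84 ± 0.17 (edgeR adjusted p = 0.00031). Socs2, the SOCS protein that limits growth hormone action, rose by 2.23 ± 0.21 in IP and 0.90 ± 0.20 in IV on the log2 scale (edgeR adjusted p = 3.91e-05 and 0.0151), the IV call being lost without PBS 1, PBS 2 or IV 2 (edgeR adjusted p up to 0.0738). Cish, a STAT5 target that damps the same receptor, rose by 2.22 ± 0.19 in IP against PBS (edgeR adjusted p = 2.89e-05) and was higher in IP than in IV by 1.66 ± 0.19 (edgeR adjusted p = 0.000809). Ptpn6, the phosphatase SHP-1 of blood cells, rose by 1.19 ± 0.15 in IP and 0.96 ± 0.15 in IV on the log2 scale (edgeR adjusted p = 0.000175 and 0.00323). Socs2, Socs3 and Cish were all higher in IP than in IV omenta, whereas Igf1 was 51.5 ± 10.3 CPM in IP and 53.6 ± 9.91 CPM in IV omenta.

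**Figure D5:**
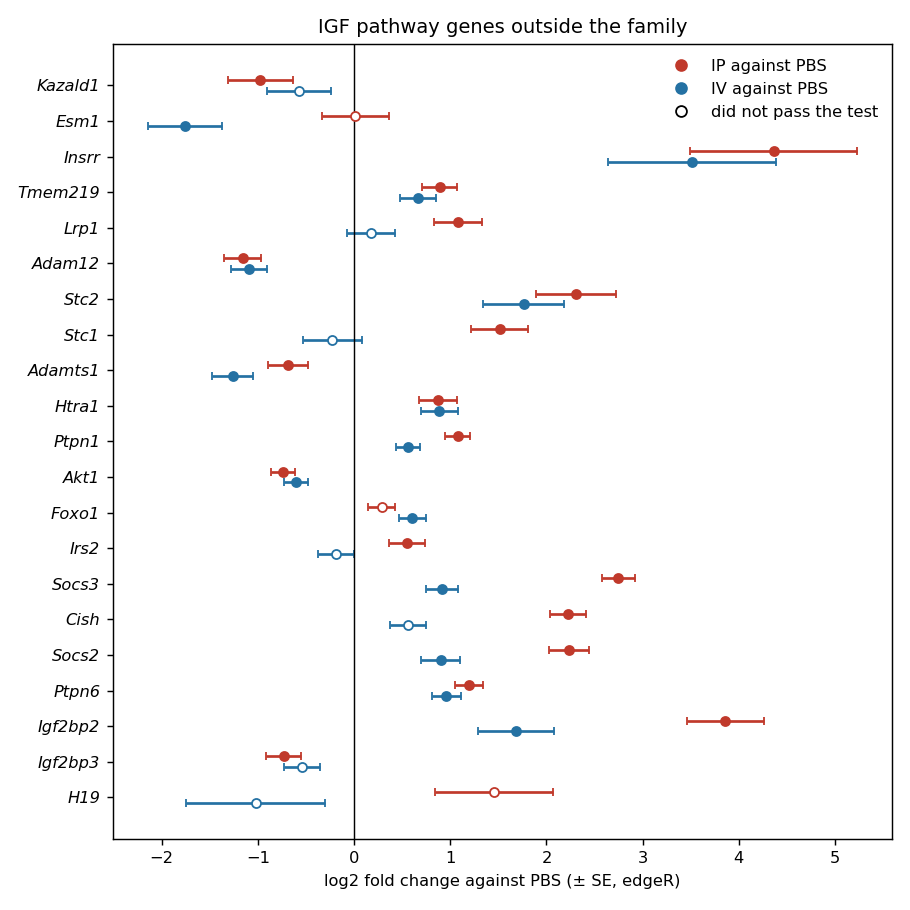
Log2 fold change against PBS, with bars for ± 1 SE from edgeR, of the pathway genes named in the text, in IP omenta (red) and IV omenta (blue); open circles did not pass the threshold. Socs3, Socs2 and Cish, which serve many cytokine receptors besides that of growth hormone, lie at 2.22 to 2.75 in IP omenta and at most 0.91 in IV omenta.

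Downstream of the receptor, 4 of 20 adaptor, kinase and transcription factor genes rose and 2 fell in IP against PBS, and 2 rose and 1 fell in IV against PBS, with medians of 0.03 and -0.10. Akt1, the kinase through which IGF favours survival, was at 526, 592 and 523 CPM in IP omenta and 657, 557 and 585 CPM in IV omenta, against 931, 943 and 866 CPM in PBS omenta. Each treated library was below each PBS library, with log2 fold changes of -0.74 ± 0.13 in IP and -0.61 ± 0.13 in IV (edgeR adjusted p = 0.00117 and 0.0107). The IV call of Akt1 was lost with only the IV and PBS libraries in the fit (edgeR adjusted p = 0.0586). Ptpn1, the phosphatase that switches off insulin and IGF receptors, was at 172, 160 and 174 CPM in IP omenta and 113, 127 and 114 CPM in IV omenta, against 72.9, 73.3 and 93.6 CPM in PBS omenta. Those groups did not overlap, with log2 fold changes of 1.08 ± 0.13 in IP and 0.56 ± 0.13 in IV (edgeR adjusted p = 0.000145 and 0.0165). Foxo1, a transcription factor that AKT inhibits, rose by 0.61 ± 0.14 in IV against PBS (edgeR adjusted p = 0.0183). The IV calls of Ptpn1 and Foxo1 were lost without PBS 1, PBS 2 or IV 2, with adjusted p up to 0.0874 and 0.0925. Between routes, Irs2, an insulin receptor substrate, was higher in IP by 0.74 ± 0.19 (edgeR adjusted p = 0.0307) and Ptpn1 by 0.51 ± 0.13 (edgeR adjusted p = 0.0295). Both calls were lost without any 1 of the 3 IP libraries or without IV 1, and that of Irs2 also without IV 2, with adjusted p up to 0.140.

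Of the remaining insulin-family and IGF-binding genes, 5 of 7 were tested, and 1 fell in each comparison with PBS. Esm1, which codes for endocan, an endothelial proteoglycan with an IGF-binding-protein-like domain, was at 3.89, 5.97 and 3.03 CPM in IP omenta and 0.800, 1.47 and 1.55 CPM in IV omenta, against 4.15, 5.68 and 2.99 CPM in PBS omenta. IV libraries were below all others, a fall of 1.76 ± 0.38 on the log2 scale against PBS (edgeR adjusted p = 0.0131). The difference IP minus IV was 1.77 ± 0.38 (edgeR adjusted p = 0.0156) and was lost without IP 2 or IP 3 (edgeR adjusted p up to 0.0707). Kazald1, whose product resembles the binding proteins, fell by 0.97 ± 0.34 in IP against PBS (edgeR adjusted p = 0.0467), a call lost without any 1 of the 3 IP or 3 PBS libraries (edgeR adjusted p up to 0.150).

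The last list held the RNA-binding proteins named for Igf2 mRNA and H19, the imprinted RNA beside Igf2, with 1 higher and 1 lower of 4 in IP against PBS and 1 higher in IV against PBS. Igf2bp2 was at 15.8, 12.9 and 15 CPM in IP omenta and 3.64, 4.54 and 1.92 CPM in IV omenta, against 0.928, 0.499 and 1.48 CPM in PBS omenta. The groups did not overlap, with log2 fold changes of 3.86 ± 0.40 in IP and 1.68 ± 0.39 in IV (edgeR adjusted p = 6.30e-05 and 0.0180), the IV call being lost without PBS 1, IV 1 or IV 2 (edgeR adjusted p up to 0.0729). Its relative Igf2bp3 fell by 0.73 ± 0.18 in IP against PBS (edgeR adjusted p = 0.0102), a call lost without PBS 1 or IP 3 (edgeR adjusted p up to 0.0521). Igf2 itself, as given above, had at most 2 counts in any library.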

How the data were processed

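Poly(A) RNA libraries from 100 ng of total RNA were prepared with a directional kit and sequenced as pairs of 51 bases, per the labels' protocols. Per the submitters' processing notes the tools included STAR 2.7.9, featureCounts and limma, and the build was mm39. The role of each tool, the annotation release and the strand setting were not given in the sources used here. Whole-number counts for 55359 genes were used as deposited, beside a table of log2 CPM for 18833 genes, which the authors' values show to be scaled by library total alone (169497 of 169497 values within 1e-10 of log2((count + 0.5)/(total + 1) × 1e+06), the total being that of its own genes). Symbols came from GENCODE M21, which named 52083 genes. Gene levels per kb use its exon union lengths.

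Counts were fitted in edgeR 4.0.16 (R 4.3.3) with filterByExpr (17123 genes kept), TMM and 1 robust quasi-likelihood model over all 9 libraries without covariates. Tests were two-sided, with Benjamini-Hochberg adjustment over all tested genes and a threshold of 0.05. The SE was taken as |log2 fold change|/√F. CPM are TMM-scaled. Alternatives used DESeq2 1.42.0, limma 3.58.1, other filters, only the groups compared, a replicate block and each library left out. The scripts were tested on simulated data. The p-values rest on the spread among mice within all 3 groups, estimated together over the 9 libraries. The libraries of the group not compared therefore also bear on each p. Precision rests on totals between 7379798 and 44626843 counts. The smallest chi-square per degree of freedom between libraries of a group was 7.09, so none counted as a repeat.

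The family genes, gene lists and tests were chosen with earlier results of these data known. All 9 family genes are named, and of each pathway list up to 3 genes with the smallest p past the threshold per comparison, besides a few named for their role or as markers after their values were seen. For Igfbp5, Igfbp3 and Igf1 the 5 ranked genes with the highest Pearson r are named. A pathway gene that this naming rule picks is not reported here. Reads shared with overlapping genes were not resolved.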

Additional observations from a re-analysis of the deposited data

Results flagged for a closer look

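Igfbp5 lay on opposite sides of the PBS libraries by route: all 3 IP libraries were below and all 3 IV libraries above them, with a difference IP minus IV of -3.06 on the log2 scale that was not tested, since the gene was chosen for it.

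For 10 pathway genes outside the family the effect against PBS differed between the routes in edgeR's test of IP against IV. The log2 differences IP minus IV were 1.84 for Socs3 (edgeR adjusted p = 0.00031), 1.66 for Cish (0.000809), 1.33 for Socs2 (0.00286), 2.18 for Igf2bp2 (0.00531) and 1.74 for Stc1 (0.00616), which held whichever library was left out. Esm1 differed by 1.77 (edgeR adjusted p = 0.0156), Ptpn1 by 0.51 (0.0295), Irs2 by 0.74 (0.0307), Lrp1 by 0.91 (0.0436) and H19 by 2.48 (0.0485). The call of H19 rests on few reads, with 35, 28 and 12 counts in IP omenta and 7, 0 and 6 in IV omenta, and was lost without any 1 library other than IP 4 (edgeR adjusted p up to 0.179). All 10 genes were higher in IP than in IV omenta. They are at most 3 genes of each list, those with the smallest p. Over all 17123 tested genes 10.4% were called between routes, 5.93% with IP above IV and 4.47% with IP below it.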

How the results depend on the processing

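Of 204 recomputed log2 fold changes of the 6 tested family genes against PBS, 190 kept their direction and side of the threshold, 10 turned direction, 3 passed newly and 1 was lost. Those that turned were near 0: Igf1r in IP against PBS was 0.052 with the replicate block and -0.10 to 0.043 with 1 library left out, and Igfbp4 in IV against PBS was -0.031 with DESeq2 size factors, -0.031 with the DESeq2 Wald test, -0.067 on the deposited log2 CPM, -0.038 without a filter and -0.053 to 0.083 with 1 library left out. Igfbp6 passed in IP against PBS with only the groups compared (edgeR adjusted p = 0.0297). Of 204 values described without a test, 7 turned, all in IP against IV: Igf1, at -0.05, ranged between -0.21 and 0.079, and Igfbp2, at 0.01, between -0.34 without IV 4 and 0.32 with limma voom. Of 713 values of pathway genes, 109 lost their call and none turned. With only the groups compared, the IV calls of Insrr, Tmem219, Stc2, Akt1, Ptpn1, Foxo1, Socs2 and Igf2bp2 were lost. Leaving out 1 library gave 3956 to 6569 genes called in IP against PBS, 980 to 4580 in IV against PBS and 673 to 2873 in IP against IV, the highest each time without IV 4. Family genes called were 2 to 3 in IP against PBS and 0 to 2 in IV against PBS. With only the groups compared, 1210 genes were called in IV against PBS, and with the DESeq2 Wald test 2759 in IP against IV. The share of higher calls was 56.8% in IP against PBS, 64.8% in IV against PBS and 57.0% in IP against IV, and 42.7%, 54.5% and 40.8% with limma on the deposited log2 CPM, where the medians over all genes shifted to -0.14 in IP against PBS and -0.11 in IP against IV. With only the groups compared it was 77.3% in IV against PBS. Deviations from the group means gave no sign of pairing by mouse number: the correlations of 6 same-numbered pairs ran between -0.399 and 0.10. Those of differently numbered pairs ran between -0.336 and 0.272. With 3 libraries a group, such correlations cannot decide whether mice of equal number shared a batch. With the mouse number as a replicate block 4502, 2044 and 1134 genes were called in IP against PBS, IV against PBS and IP against IV, and no family gene gained or lost a call, while Akt1, Tmem219, Stc2 and Foxo1 in IV against PBS, Kazald1 and Irs2 in IP against PBS and Esm1, Ptpn1, Irs2 and H19 in IP against IV did not pass. The causes of these shifts were not tested. Depth limits Igf2, and with 3 libraries a group a rank test alone could not reach the threshold.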

Other observations

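Insulin transcripts were counted in most treated omenta and in no PBS library. Ins2 had 9, 151 and 1054 counts in IP omenta and 66, 4 and 0 in IV omenta, against 0 in each PBS library, and Ins1 had 2, 91 and 547 counts in IP omenta and 21, 2 and 0 in IV omenta, against 0 in each PBS library. Neither passed the test in any comparison. The summed level of 12 pancreatic acinar markers was 193, 251 and 18815 CPM in IP omenta and 25014, 4387 and 9.52 CPM in IV omenta, against 19.4, 20.6 and 13.3 CPM in PBS omenta.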
